A study of Nicotiana tabacum with 12 samples.

Results

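The 100 most abundant leaf transcripts of wild type tobacco were followed in 3 transgenic lines that express DcLCYB1, the lycopene β-cyclase gene of carrot. For each NiTAB identifier, that is, each predicted gene of the tobacco genome, CPM was calculated as the reads of the identifier in every 1000000 gene reads of the library. The 100 identifiers with the highest mean CPM over the 3 wild type libraries were taken, out of 35519 listed, and they are called members below. The wild type levels thus chose the members, and these levels are given as a description. Each member is called by its rank in the wild type, from 1 for the most abundant.

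The data were 12 QuantSeq 3′ mRNA-Seq libraries from leaves of 5-week-old tobacco (Nicotiana tabacum cultivar Xanthi NN). L14, L15 and L16, the DcLCYB1 lines, and the untransformed wild type had 3 biological replicates each. The lines are separate transgenic lines of the carrot gene, described both as T4 lines and as T3 plants in the sources used here. Seeds of all genotypes, the wild type included, are described as germinated on MS medium with sucrose and kanamycin. How many plants went into a library is not given in the sources used here, so the p-values measure the spread between these libraries. The carrot transgene is not among the NiTAB identifiers and was not analysed here. With leaf tissue as the sample, a change in the mix of cell types and a change in RNA per cell cannot be told apart.

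Lycopene β-cyclase closes the rings that turn lycopene into β-carotene, a pigment of the photosynthetic apparatus and a precursor of abscisic acid and strigolactones. In leaves of land plants the messenger pool is very uneven. A small set of nuclear transcripts usually holds a large share of it, among them those for the small subunit of Rubisco and for the chlorophyll-binding proteins of the light-harvesting antennae. Tobacco is an allotetraploid, and many of its genes occur as near-identical copies from both parental genomes. Reads without a unique alignment were listed apart and entered no gene count. They made up 19.1 to 21.4% of all listed reads, so transcripts with such copies can be counted too low in the shares and ranks below. No table at hand paired the identifiers with gene names, so no function is given to any member, and the leaf label was not checked against marker genes. In 3′ sequencing a transcript gives reads near its polyadenylated end, so that CPM can be compared between genes without a correction for length.

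Gene counts per library lay between 12887911 and 24343174, and the smallest count of any member in any library was 9254, so that counting error was small for all members. All 100 members passed the filter on low counts, as did 18823 identifiers in all. Replicate 3 of the wild type stood apart from the other wild type libraries, and replicate 2 of L16 from the other L16 libraries, and the main counts and values below are also given without them. Reads outside annotated genes made up 33.4 to 36.4% of all listed reads in the lines and 35.6 to 38.1% in the wild type. The synthetic spike-in SIRV4 made up 6.34 to 7.77% of the spike-in reads in the lines and 5.19 to 5.38% in the wild type. The part of either in the differences below was not tested.

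The members held a large share of the gene reads, which differed little between genotypes. The L14 libraries had 41.2, 42.8 and 43.1%, the L15 libraries 43.0, 41.3 and 42.5%, the L16 libraries 42.4, 37.9 and 43.7%, and the wild type libraries 42.0, 42.5 and 47.4%. The lowest share was in L16 replicate 2 and the highest in wild type replicate 3, while the other 10 libraries lay within 41.2 to 43.7%. The means were 42.4% ± 1.03 in L14, 42.3% ± 0.839 in L15, 41.3% ± 3.07 in L16 and 44.0% ± 2.96 in the wild type (SD, n = 3 each), and the ranges of each line and the wild type overlapped. Without replicate 3 the wild type mean was 42.3%, and without replicate 2 the L16 mean was 43.0%. Set against all listed reads, including those outside genes, the members took 17.9% in L14, 17.8% in L15, 17.6% in L16 and 17.7% in the wild type. The next 100 identifiers in the wild type order took 8.81 to 9.35% in every library.

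**Figure D1:**
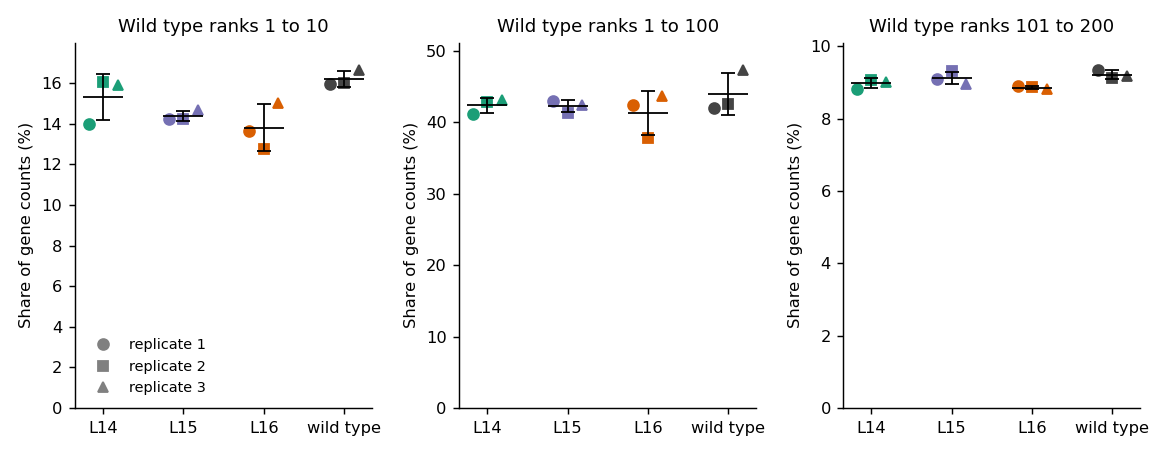
Share of gene counts (%, from 0) taken by wild type ranks 1 to 10, by ranks 1 to 100 and by the next 100 ranks, for each of the 12 libraries (symbols, by replicate) with the mean and SD of the 3 libraries of a genotype (bars). For ranks 1 to 100, wild type replicate 3 lies highest at 47.4% and L16 replicate 2 lowest at 37.9%.

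The first ranks held a large part of this share. The most abundant transcript alone took 4.42% ± 0.337 of gene counts in L14, 4.21% ± 0.259 in L15, 3.70% ± 0.00852 in L16 and 4.68% ± 0.236 in the wild type (SD, n = 3 each). For the first 10 members together, all L15 and L16 libraries (12.7 to 15.0%) lay below all wild type libraries (15.9 to 16.7%), while L14, at 14.0 to 16.04%, overlapped them. Wild type replicate 3 was the highest of these and L16 replicate 2 the lowest, so the ranges of L15 and L16 lay below that of the wild type without both as well. These 10 members were the highest by wild type level, so a lower share in the lines is partly fixed by the choice. No test was run on these sums. The number of identifiers needed to reach 50% of the gene counts was 164 to 185 in L14, 158 to 180 in L15, 151 to 230 in L16 and 118 to 179 in the wild type. The lowest of these was wild type replicate 3 and the highest L16 replicate 2.

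Levels fell steeply over the first ranks and slowly after that. In the wild type, 7 members reached 10000 CPM, 24 reached 5000 CPM and 32 lay under 2000 CPM, and rank 1 was 33.5 times as abundant as rank 100. Just inside the limit of the choice, ranks 99 and 100 had wild type means of 1431 and 1394 CPM, and just outside it the next 2 identifiers had 1386 and 1382 CPM. Neighbours in the order were rarely apart by more than the spread of the libraries. Of the 99 neighbouring pairs in the order of each genotype, the libraries overlapped in 94 in L14, 94 in L15, 97 in L16 and 95 in the wild type.

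**Figure D2:**
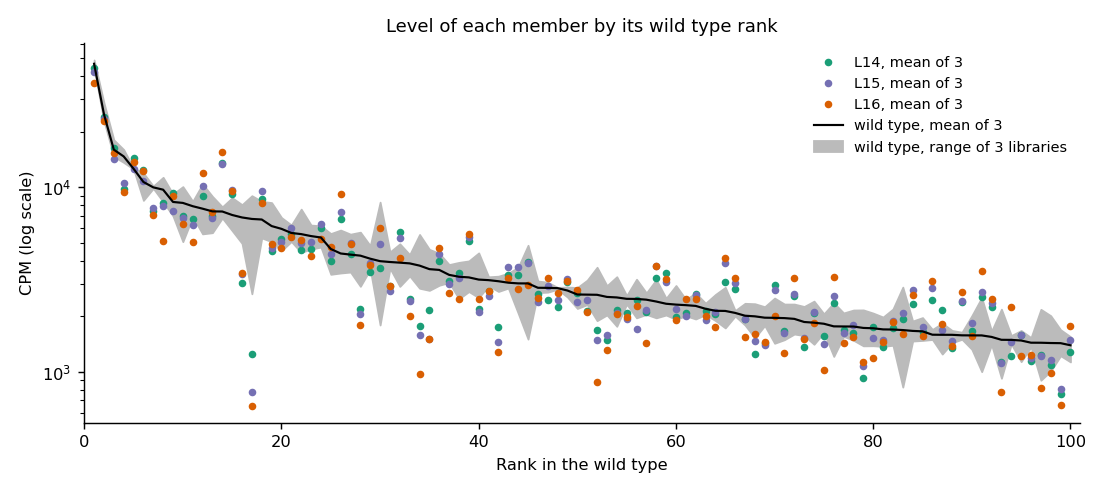
CPM (log axis) of each member against its rank in the wild type, with the mean of 3 libraries of L14, L15 and L16 as points and the mean and range of the 3 wild type libraries as line and band. The levels fall steeply over the first ranks, rank 17 lies far below the wild type band in all 3 lines, and rank 14 lies above it.

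Rank 1 stayed at the top in all genotypes. It had 41114, 47785 and 43638 CPM in L14, 40803, 45111 and 40457 CPM in L15, 37061, 36891 and 36968 CPM in L16, and 46898, 44327 and 49037 CPM in the wild type. In CPM, the L16 libraries lay below all others with a coefficient of variation (CV) of 0.231%, while the L14 and L15 libraries overlapped the wild type. After the scaling used in the test, the L16 libraries overlapped those of L14 and L15. The L15 and L16 libraries then lay below the wild type. Its log2 fold change was -0.22 ± 0.18 for L14 (edgeR adjusted p = 0.465), -0.25 ± 0.18 for L15 (0.398) and -0.41 ± 0.18 for L16 (0.111). The errors are SE, and none passed the threshold of 0.05. Here and below, log2 fold changes come from edgeR's quasi-likelihood fit of all 12 libraries, adjusted by Benjamini-Hochberg over the 18823 tested identifiers.

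Among ranks 2 to 10, ranks 2, 3, 5, 6, 9 and 10 passed the test in no line. Rank 10 was called lower in all 3 lines without wild type replicate 3 (log2 fold changes -0.54 for L14, -0.55 for L15, -0.63 for L16). Ranks 2 and 6 kept their places in all 3 lines. Rank 4 had 8997, 9716 and 10686 CPM in L14, 10226, 9097 and 12265 CPM in L15, 8893, 7256 and 12132 CPM in L16, and 14459, 13655 and 16034 CPM in the wild type. All 9 line libraries were below all 3 wild type libraries, but the edgeR adjusted p was 0.0552 for L14, 0.116 for L15 and 0.0401 for L16, so only L16 passed. That call was lost without L16 replicate 1 or 2, wild type replicate 1 or 3, L14 replicate 2 or L15 replicate 1. Rank 7 had wild type levels of 9879 to 10166 CPM and lay at 6279 to 8492 CPM in the lines, and it was likewise called lower in L16 only (log2 fold change -0.55 ± 0.20, edgeR adjusted p = 0.0477). The call of rank 7 was lost when any of L16 replicates 1 and 2, L14 replicates 2 and 3, L15 replicates 1 and 2 or the wild type libraries was left out. Rank 8 had 6321, 3616 and 5367 CPM in L16, against 9453, 8358 and 11336 CPM in the wild type. It was called lower in L16 (log2 fold change -0.995 ± 0.23, edgeR adjusted p = 0.00515), and its place in the order was 21 in L16.

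Against the wild type, with all 12 libraries, more members were called lower than higher in each line. In L14, 3 of the 100 members were called higher and 13 lower, where 6.61% of all tested identifiers were called higher and 5.94% lower. L15 had 7 members higher and 13 lower, beside 8.49% of all higher and 6.85% lower. L16 had 14 members higher and 22 lower, beside 14.6% of all higher and 12.7% lower. Over all tested identifiers, unlike the members, the higher calls were the more frequent. The members' median log2 fold change was -0.24 for L14, -0.20 for L15 and -0.19 for L16, beside 0.02, 0.01 and 0.00 over all tested identifiers. The wild type libraries chose the members, so a lower level in the lines is partly fixed by the choice and no meaning is read from this balance. With the 100 identifiers chosen instead on the 9 line libraries, which shared 91 with the members, L14 had 4 higher and 10 lower, L15 had 10 and 9, and L16 had 17 and 15.

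The counts moved with single libraries. Without wild type replicate 3, L14 had 8 higher and 13 lower, L15 had 16 and 14, and L16 had 18 and 20. Without both wild type replicate 3 and L16 replicate 2 L14 had 17 higher and 14 lower, L15 had 24 and 15, and L16 had 22 and 18. Without L14 replicate 1, L14 had 0 higher and 6 lower by the edgeR test. Without wild type replicate 2, higher calls numbered 1 for L14, 2 for L15 and 7 for L16, and without wild type replicate 1 they numbered 2 for L14, 3 for L15 and 8 for L16. Of all identifiers, 7.81, 8.71 and 19.9% were called in the first of these fits and 10.6, 12.5 and 23.15% in the second. Leaving out 1 L15 library left 2 to 5 higher and 8 to 10 lower in L15, beside 7.04 to 11.3% of all. Leaving out 1 L14 library left 0 to 1 higher in L14, beside 5.99 to 9.62% of all. L14 also had 1 higher without L15 replicate 2 or without L15 replicate 3, beside 10.6 and 12.2% of all. Without L16 replicate 1, L16 had 8 higher and 18 lower, beside 18.5% of all. Scaling moved the balance too. With library totals only, which moved the median of all identifiers by 0.13 in L14, the L14 calls were 8 higher and 14 lower. Of all identifiers, 11.7% were called for L14 in that fit.

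Well-counted identifiers were called more often, which bears on the background. Among the 12656 identifiers with at least 50 counts in 3 libraries, 18.6% were called for L14, 21.7% for L15 and 36.4% for L16. In that fit 17 members were called for L14, 19 for L15 and 36 for L16. The members were thus called about as often as this set. The next 100 identifiers in the order, nearer to the members in level, were called more often. Of these, 28 were called for L14, 33 for L15 and 41 for L16 in the fit of all tested identifiers, beside 16, 20 and 36 of the members. Within the members, the first 50 ranks had 1 higher and 7 lower for L14, 1 and 8 for L15, and 3 and 11 for L16, while ranks 51 to 100 had 2 and 6 for L14, 6 and 5 for L15, and 11 and 11 for L16.

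**Figure D3:**
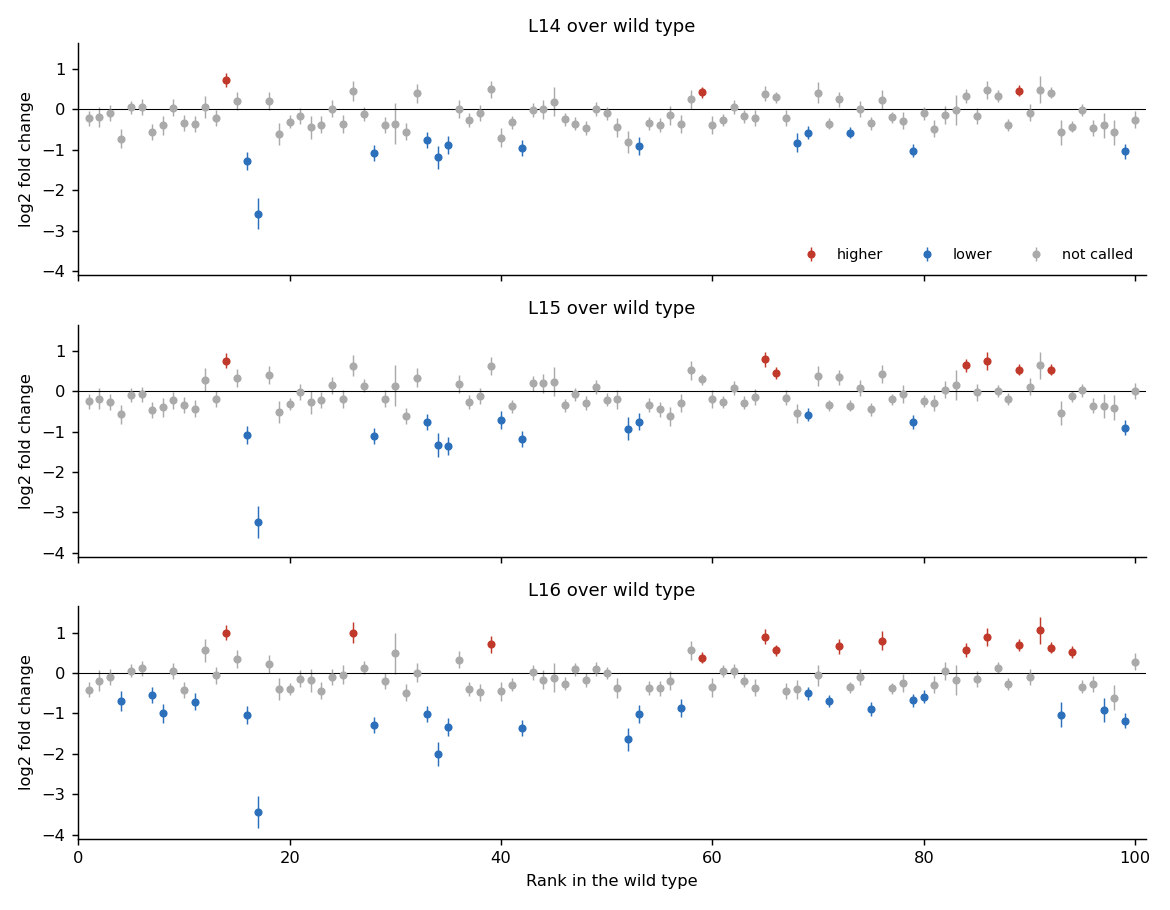
log2 fold change of each member against the wild type, with SE as bars, plotted by wild type rank for L14, L15 and L16 from top to bottom. Members with an edgeR adjusted p under 0.05 are red (higher) or blue (lower), and the others are grey. The number of blue points is 13 in the upper and middle plot and 22 in the lower plot.

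The 3 lines share the wild type libraries they were compared with, so their fold changes are given side by side. Of the members, 39 were called in at least 1 line (30.6% of all tested identifiers were) and 61 in none. Among the 39, 2 were higher in all 3 lines (4.91% of all) and 11 were lower in all 3 lines (4.06% of all). The 11 were ranks 16, 17, 28, 33, 34, 35, 42, 53, 69, 79 and 99. Of the next 100 identifiers in the wild type order, 2 were higher and 23 lower in all 3 lines. The wild type levels chose both sets, so a lower level in the lines is partly fixed by the choice. Both counts of the members moved with single libraries. Without L14 replicate 1, 0 were higher and 6 lower in all 3 lines, and without wild type replicate 3 these counts were 7 and 12. Without both wild type replicate 3 and L16 replicate 2, 15 were higher and 13 lower in all 3 lines. DESeq2 gave 4 and 14, and library totals only gave 7 and 11. The count higher in all 3 was 0 without L15 replicate 1, and 1 without L14 replicate 2 or 3, L15 replicate 2 or 3, or wild type replicate 2. For these alternative fits, the shares of all identifiers called in all 3 lines were not calculated. In number of fold changes beyond 1 on the log2 scale, L14 had 6, L15 had 6 and L16 had 12 members. Over all 18823 tested identifiers these numbers were 2429, 2742 and 3852, a larger share in each line. Among the next 100 identifiers they were 7, 8 and 18.

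The largest fall was at rank 17, Nitab4.5_0000037g0280. It had 1108, 955 and 1704 CPM in L14, 706, 794 and 843 CPM in L15, 662, 529 and 781 CPM in L16, and 2649, 8568 and 9014 CPM in the wild type. The line libraries lay below all wild type libraries, although wild type replicate 1 was far below the other wild type libraries. Its log2 fold change (± SE) was -2.58 ± 0.39 for L14 (edgeR adjusted p = 0.000501), -3.23 ± 0.40 for L15 (adjusted p = 7.23e-05) and -3.44 ± 0.40 for L16 (adjusted p = 2.5e-05). The transcript was at place 109 of the order of L14, 171 of L15 and 209 of L16.

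Next was rank 34, Nitab4.5_0002219g0010, with 1182, 2066 and 2092 CPM in L14, 1331, 1939 and 1480 CPM in L15, 703, 984 and 1229 CPM in L16, and 2905, 5556 and 2840 CPM in the wild type. No line library reached the lowest wild type library, and wild type replicate 2 stood well above the other wild type libraries. Its log2 fold change (± SE) was -1.19 ± 0.29 for L14 (edgeR adjusted p = 0.0145), -1.33 ± 0.29 for L15 (adjusted p = 0.00706) and -1.99 ± 0.30 for L16 (adjusted p = 0.000195). The L14 call was lost without L14 replicate 1 (log2 fold change -0.94) and without wild type replicate 2 (-0.85).

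Ranks 35, 42 and 28 completed the 5 largest falls. Rank 35 lay at 2092 to 2244 CPM in L14, 1404 to 1652 CPM in L15 and 1319 to 1788 CPM in L16, against 2765 to 4615 CPM in the wild type. Rank 42 lay at 1165 to 1364 CPM in L16, against 2728 to 3301 CPM in the wild type, with a log2 fold change of -1.35 ± 0.20 (edgeR adjusted p = 0.000167). Rank 28 lay at 1589 to 2053 CPM in L16, against 2909 to 5717 CPM in the wild type, with a log2 fold change of -1.29 ± 0.20 (edgeR adjusted p = 0.000267). For all 3, the libraries of each line lay below those of the wild type. The L14 call of rank 35 (log2 fold change -0.89) was lost without L14 replicate 1 (-0.82) and without wild type replicate 3 (-0.57).

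Of the transcripts that rose, rank 14, Nitab4.5_0000363g0260, gained most. It had 14999, 13402 and 12036 CPM in L14, 14995, 14492 and 10489 CPM in L15, 18002, 17196 and 11585 CPM in L16, and 7533, 7842 and 6824 CPM in the wild type. Every line library was above every wild type library, and replicate 3 was the lowest in each genotype. Its log2 fold change (± SE) was 0.73 ± 0.18 for L14 (edgeR adjusted p = 0.0146), 0.76 ± 0.18 for L15 (adjusted p = 0.0104) and 1.00 ± 0.18 for L16 (adjusted p = 0.000832). It stood at place 5 of the order of L14, 4 of L15 and 3 of L16. The L14 call was lost without L14 replicate 1 (0.69) and the L15 call without L15 replicate 1 (0.67).

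Rank 89, Nitab4.5_0002100g0150, was the other member called higher in all 3 lines. It had 2620, 2321 and 2252 CPM in L14, 2644, 2428 and 2236 CPM in L15, 3005, 2747 and 2332 CPM in L16, and 1640, 1502 and 1592 CPM in the wild type. The line libraries were again above all wild type libraries, with replicate 1 the highest in each genotype. Its log2 fold change (± SE) was 0.46 ± 0.14 for L14 (edgeR adjusted p = 0.0434), 0.53 ± 0.14 for L15 (adjusted p = 0.02) and 0.70 ± 0.14 for L16 (adjusted p = 0.00206). The L14 call was lost in 8 of 22 alternative fits, among them those without any single L14 library, without wild type replicate 1 or 2, and without L15 replicate 2 or 3. The L15 call was lost in 3, those without L15 replicate 1 and without wild type replicate 1 or 2. Over the 12 libraries the log2 CPM of ranks 14 and 89 correlated with r = 0.971, and their deviations from the genotype means with r = 0.857. This is a description over libraries that share depth and genotype.

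Other members with large mean gains over the lines were ranks 91, 86, 26 and 65, called in 1 or more lines each. Rank 26 had 9326, 7287 and 11065 CPM in L16, against 3843, 3435 and 5870 CPM in the wild type, and was called in L16 only (log2 fold change 1.00 ± 0.25, edgeR adjusted p = 0.00884), but also in L14 (0.83) and L15 (0.995) without wild type replicate 3. Rank 65 had 3956, 3690 and 4095 CPM in L15 and 4462, 3876 and 4025 CPM in L16, against 2873, 1731 and 1815 CPM in the wild type, with log2 fold changes of 0.80 ± 0.19 and 0.89 ± 0.19. Rank 91 depended on single libraries. It had 4660, 2807 and 3137 CPM in L16, against 1200, 1003 and 2527 CPM in the wild type. Its log2 fold change in L16 was 1.05 ± 0.33 (edgeR adjusted p = 0.0283) and 1.70 without wild type replicate 3, and without that library it passed the threshold in L14 and L15 too, at 1.14 and 1.27. The L16 call of rank 91 was lost without L16 replicate 1 (0.80), wild type replicate 1 (0.86) or wild type replicate 2 (0.78).

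**Figure D4:**
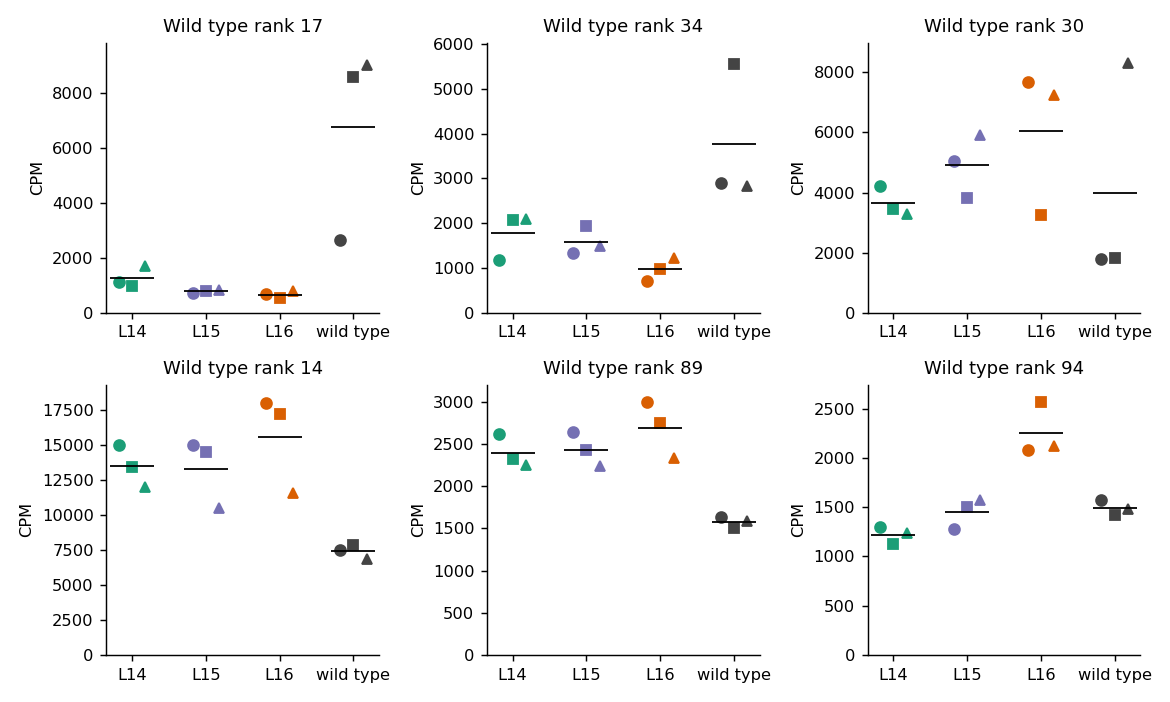
CPM (from 0) in each library for 6 members, with L14, L15, L16 and the wild type from left to right, replicates 1, 2 and 3 as circle, square and triangle, and the mean as a line. Ranks 17 and 34 lie lower and ranks 14 and 89 higher in all line libraries than in any wild type library, rank 94 is highest in L16, and rank 30 ranges from 1795 to 8315 CPM within the wild type.

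In CPM, losses were larger than gains in each line with all 12 libraries, while without wild type replicate 3 they were smaller than gains in L14, nearly equal to them in L15 and larger in L16. Over the members, those above their wild type means in L14 gained 36962 CPM and those below fell by 52979 CPM. In L15 the gain was 41065 CPM and the rest fell by 58157 CPM, and in L16 the gain was 48627 CPM and the rest fell by 75206 CPM. When wild type replicate 3 was left out, the L14 gain was 50032 CPM and the rest fell by 49016 CPM, the L15 gain was 56071 CPM and the rest fell by 56130 CPM, and the L16 gain was 60512 CPM and the rest fell by 70058 CPM. Without L16 replicate 2 as well, the L16 gain was 75054 CPM and the rest fell by 67301 CPM. The wild type levels chose the members, so no meaning is read from the balance. With all libraries, the largest mean losses were at ranks 17, 1 and 4, and the largest gains at ranks 14, 26 and 12. Only part of this came from called members. Those called lower in L16 took 5.03% of gene counts there, against 9.58% in the wild type, and those called higher took 6.42% in L16, against 3.48% in the wild type. The calls in these same libraries picked the members of both sums, so the direction of each sum is fixed by the choice.

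The order of the members was closer between lines than between a line and the wild type. Spearman's rho over the 100 members was 0.885 to 0.975 for pairs of libraries from different lines and 0.555 to 0.866 for a line and a wild type library, and 0.762 to 0.922 between wild type libraries. Without wild type replicate 3 and L16 replicate 2, the values were 0.896 to 0.975 between lines and again 0.555 to 0.866 between a line and the wild type. The only wild type pair left, replicates 1 and 2, had 0.922. These are descriptions over members, which are not independent, and the choice on wild type levels narrows the range of their levels. The top 100 of L14 held 88 of the members, that of L15 92 and that of L16 84. Leaving that top 100 in all 3 lines were 7 members, ranks 17, 79, 93, 96, 97, 98 and 99, and 7 identifiers from outside the members, down to wild type rank 124, entered it in all 3. Apart from rank 17 and rank 79, those leaving came from the last 8 ranks, where levels are close together. Of these, ranks 93, 97 and 98 owed their wild type ranks to wild type replicate 3. They had 2016 to 2187 CPM there, but 901 to 1367 CPM in wild type replicates 1 and 2. Their leaving is thus partly fixed by the choice. Chosen without wild type replicate 3, the top 100 of the wild type held 95 of the members.

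Line against line contrasts compare no library that chose the members, although the wild type libraries enter the common estimate of the spread. Between L15 and L14, edgeR called 0 members, where 0.0159% of all tested identifiers were called, with 4 members at an unadjusted p under 0.05 and 0 called by DESeq2. The log2 differences of L15 over L14 lay between -0.65 and 0.49. Between L16 and L14, 1 member was called, where 1.73% of all were. DESeq2 called 5 members, where it called 5.18% of all. The fit without the filter called 7, beside 3.15% of all. The fit without wild type replicate 3 and L16 replicate 2 called 4, beside 1.87% of all. Between L16 and L15, 1 member was called, where 0.712% of all were, and 3 without the filter, where 1.52% of all were. By the edgeR test of all 12 libraries it was rank 94 both times. Rank 94 had 2083, 2564 and 2126 CPM in L16, against 1296, 1124 and 1242 CPM in L14 and 1278, 1505 and 1571 CPM in L15, and 1574, 1416 and 1483 CPM in the wild type. The L16 libraries lay above all other 9, and L14 lay below the wild type. The log2 fold change was 0.95 ± 0.14 for L16 over L14 (edgeR adjusted p = 0.0028) and 0.65 ± 0.14 for L16 over L15 (edgeR adjusted p = 0.0463). The first was kept in each of 22 alternative fits, with 0.89 to 1.00, and 2 members were called between L16 and L14 without L14 replicate 1 or without wild type replicate 3. The second was lost in 13 of 22, among them those without any single L14, L15 or L16 library and without wild type replicate 1, at 0.57 to 0.74. Against the wild type, rank 94 was called higher in L16 (0.52 ± 0.14, edgeR adjusted p = 0.0125), a call lost without wild type replicate 2 (0.45), and in L14 the change of -0.43 ± 0.14 did not pass (edgeR adjusted p = 0.0577).

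With all 3 libraries, the spread of the members between replicates was larger in the wild type than in the lines, and wild type replicate 3 decided this. The median CV over the members was 8.75% in L14, 9.65% in L15, 14.8% in L16 and 18.5% in the wild type, and a CV over 30% was found for 3 members in L14, 3 in L15, 4 in L16 and 16 in the wild type. The wild type levels chose the members. Without wild type replicate 3 the median was 8.10% in the wild type, with 6 members over 30%, and without L16 replicate 2 it was 10.9% in L16. These 2 medians rest on 2 libraries each. With 1 library left out in the same way, the median was 6.22 to 9.41% in L14 and 7.89 to 9.40% in L15. In the wild type it was 19.7% without replicate 1 and 17.9% without replicate 2. The next 100 identifiers had medians of 8.78% in L14, 9.67% in L15, 13.1% in L16 and 15.4% in the wild type. Over all identifiers with at least 10 counts on average the medians were 17.8% in L14, 16.5% in L15, 21.9% in L16 and 22.3% in the wild type. Rank 30 varied most. It had 4223, 3445 and 3288 CPM in L14, 5048, 3809 and 5900 CPM in L15, 7664, 3268 and 7250 CPM in L16, and 1795, 1835 and 8315 CPM in the wild type, and passed the test in no line (edgeR adjusted p-values 0.696, 0.891 and 0.518). Without wild type replicate 3, rank 30 was called higher in L15 (log2 fold change 1.42 ± 0.32, edgeR adjusted p = 0.00906) and in L16 (1.78 ± 0.32, edgeR adjusted p = 0.00116), while in L14 the value of 0.95 ± 0.31 did not pass (edgeR adjusted p = 0.0657). Wild type replicate 3 was the highest wild type library for 58 of the 100 members and L16 replicate 2 the lowest L16 library for 53. At the other end, rank 66 had the lowest mean CV over the genotypes, with 2742 to 2975 CPM in L14, 2899 to 3169 CPM in L15, 3040 to 3409 CPM in L16 and 2008 to 2150 CPM in the wild type. It was called higher in L15 (0.45 ± 0.14, edgeR adjusted p = 0.0413) and in L16 (0.57 ± 0.14, edgeR adjusted p = 0.00736). The L15 call of rank 66 was lost when any L15 library, L14 replicate 2 or 3, or wild type replicate 1 or 2 was left out.

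**Figure D5:**
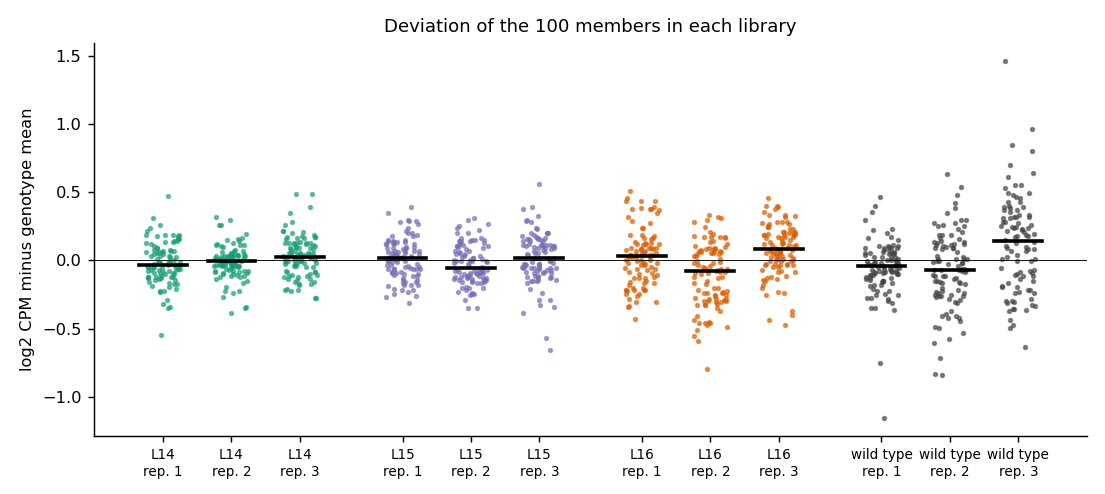
Deviation of each of the 100 members (points) from its genotype mean, in log2 CPM, in each of the 12 libraries, with the median over members as a bar. The points of wild type replicate 3 spread widest, with a median of 0.14 and a highest value of 1.46, and L16 replicate 2 has the lowest median, -0.08.

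Some members moved together over the 12 libraries. Of the 4950 pairs of members, 14 had a Pearson correlation of log2 CPM over 0.95, and the median of all pairs was 0.079. The closest pairs, singled out after their values were seen, were ranks 32 and 70 (0.991), 72 and 76 (0.986), 93 and 97 (0.974) and 45 and 83 (0.974). Only the last of these 4 lies on 1 scaffold of the assembly. Rank 83 had 2276, 1933 and 1571 CPM in L14, 2515, 1756 and 1985 CPM in L15, 2116, 1155 and 1561 CPM in L16, and 1350, 827 and 2880 CPM in the wild type, with rank 45 at higher levels but much the same pattern. Whether such pairs are near-identical copies was not tested. The members lay on 94 scaffolds, 6 of which held a pair of members, and no pair had consecutive gene numbers.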

How the data were processed

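Total RNA of leaves was made into QuantSeq FWD 3′ mRNA-Seq libraries. Reads were aligned with STAR against NiTAB 4.5, and the authors deposited raw read counts per identifier and library, without normalization. The counter and its strand setting are not given in the sources used here. The 99 spike-in rows and 5 summary lines were left out of library totals and tests. CPM was calculated on the gene count total. Members and lists were chosen with earlier results of these data known.

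Counts of all identifiers were filtered (filterByExpr), scaled (TMM) and tested with the quasi-likelihood F test of edgeR 4.0.16 (R 4.3.3) in 1 model of 4 genotypes and 12 libraries, with a Benjamini-Hochberg adjusted p under 0.05 as the threshold. The script was checked on simulated counts. Shares are means ± SD over 3 libraries, with no test. Identifiers are printed for the 2 largest changes in each direction among members called in all 3 lines, and other members are given by rank: ranks 1 to 10, those at the limit, those called between lines, the 5 largest mean changes in each direction, and the 3 largest gains, losses and CVs. Alternatives were DESeq2 1.42.0, other scaling and filters, a replicate block, 6 libraries, a minimum fold change, other choices of the members, and each library left out; leaving out wild type replicate 3 and L16 replicate 2 together, and choosing the members without wild type replicate 3, and the CPM sums, CVs and rank correlations without these libraries, were added after the data were seen.

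Replicates of a genotype differed by more than counting noise (chi-square over degrees of freedom 12.5 to 68.6). Equal replicate numbers were taken to pair genotypes where all 3 correlations of deviations from the genotype means, over identifiers with at least 10 counts on average, passed 0.1. This held for L14 and L15 (0.232, 0.115 and 0.207). L15 and L16 missed it with replicate 2 (0.0727), but over the members alone their values were 0.834, 0.724 and 0.629.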

Additional observations from a re-analysis of the deposited data

Results flagged for a closer look

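For rank 94 the difference from the wild type was not the same in all lines. Between L16 and L14, 1 member passed the test of the difference, and between L16 and L15, 1 member, the same in both. The log2 fold change of rank 94 against the wild type was 0.52 in L16, -0.43 in L14 and -0.13 in L15. Its level was 2258 CPM ± 266 in L16, 1221 CPM ± 88.1 in L14, 1451 CPM ± 154 in L15 and 1491 CPM ± 79.4 in the wild type (SD, n = 3 each).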

How the results depend on the processing

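Below, calls are given for L14, L15 and L16 against the wild type in that order. Higher calls numbered 3, 7 and 14 and lower calls 13, 13 and 22. Leaving out each library in turn gave 0 to 8, 2 to 16 and 7 to 18 higher, 6 to 17, 8 to 17 and 15 to 29 lower, 1 to 2 between L16 and L14, and for L16 against L15, 0 to 1. Of all identifiers, these fits called 5.99 to 14.0%, 7.04 to 16.6% and 18.5 to 27.4% against the wild type, in either direction. The members' shares of gene counts were 42.0 to 43.0% in L14, 41.9 to 42.7% in L15, 40.1 to 43.0% in L16 and 42.3 to 44.9% in the wild type. With the replicate block there were 7, 11 and 16 higher and 26, 24 and 35 lower, with 7 between L16 and L14 but 0 for L15 against L14, the genotypes taken as paired. For L16 against L15, where each library correlated best with its own number over the members, it gave 1. The block fit called 5 members higher and 19 lower in all 3 lines. Of all identifiers, it called 16.7, 18.6 and 30.4% against the wild type and 3.60% between L16 and L14. DESeq2 called 21 lower in L14 and 5 between L16 and L14, beside 14.45 and 5.18% of all identifiers in either direction. Without the filter there were 11 higher in L15, 21 lower in L14, 7 between L16 and L14 and, for L16 against L15, 3. Library totals gave 8 and 12 higher in L14 and L15, and 2 between L16 and L14. Only the 6 libraries compared gave 1 and 6 higher in L14 and L16. Between L16 and L15 it gave 0, and so did scaling without the members. A minimum log2 fold change of 1 left 0, 0 and 1 higher, 6, 6 and 11 lower, and 0 between lines. Members chosen on the lines gave 2 between L16 and L14. Leaving wild type replicate 3 out of choice and fit gave 7 and 14 higher in L14 and L15 and 2 between L16 and L14. Leaving out wild type replicate 3 and L16 replicate 2 gave 17, 24 and 22 higher, 4 between L16 and L14 and, for L16 against L15, 0. Of all listed reads the members took 17.9, 17.8 and 17.6%, and 17.7% in the wild type. No call by the edgeR test of all 12 libraries changed direction in these fits, but members that did not pass did, among them ranks 2, 3 and 30. The causes were not tested. With 3 libraries per genotype, differences that are small beside the spread between replicates can be missed, whatever the depth.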
